A study of Mus musculus with 2 samples.

Results

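The mitochondrial ribosomal protein genes are the protein-coding genes of the mouse whose symbol begins with Mrpl or Mrps followed by a number. They were found by that rule in the RefSeq gene table of GRCm38.p6, and all 78 of them had a strand and a start and were measured, among 21486 protein-coding genes in all. Of the 78, 49 are Mrpl genes, named for the large subunit, and 29 are Mrps genes, named for the small subunit. The choice used only symbols, so no measured value entered it. They lie on 17 chromosomes, with none on X or Y. The study assayed monomethylation of lysine 4 of histone H3 (H3K4me1) by ChIP-seq in E14TG2a.4, a male embryonic stem cell line of strain 129/Ola, taken from the embryonic stage at an age of 3.5 days, with no treatment named in the labels, in 2 biological replicates and with 1 group. All cells are of 1 line, so nothing here speaks of other lines or tissues, and no comparison of conditions was possible. As a check of the cell type, 9 of 10 embryonic stem cell marker genes had a replicated peak near their start, Pou5f1, Sox2 and Nanog among them and Tdgf1 not. Of 8 fibroblast marker genes 4 had one, against 73.1% of all protein-coding genes. Col3a1, Dcn and Lum lay in 20 kb windows without a covered base in either replicate, while Pdgfrb (41.6% and 37.9% of bases covered), Col1a1 (34.5% and 26.0%) and Thy1 (31.7% and 29.9%) were about level with the stem cell markers Klf4 (35.8% and 31.5%) and Zfp42 (38.8% and 35.3%).

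The mitochondrial ribosome translates the few messages encoded by mitochondrial DNA, which specify subunits of the respiratory chain and of ATP synthase. All of its proteins are encoded in the nucleus, made on cytosolic ribosomes and imported. Some descend from bacterial ribosomal proteins and others are found only in mitochondria. H3K4me1 marks enhancers and the flanks of active promoters, while the nucleosomes next to an active start carry trimethylation of the same lysine instead. The deposited peak lists locate H3K4me1 only, and give neither trimethylation nor expression of these genes.

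The measure used throughout is coverage, the percent of bases that lay in called peaks, and it says nothing of how strong the signal was. For each gene it was taken over the 20 kb before and the 20 kb after the transcription start site (TSS), upstream and downstream apart, in each replicate. The promoter sequences of 69 members were found in RefSeq's table for GRCm38.p6, and 7 are shown because they belong to the members with the highest, the lowest and the most typical coverage and to the only 2 members that share a promoter. Each runs 5′ to 3′ on the gene's strand and ends 30 bases into the gene. It begins 250 bases before the TSS, or 30 bases inside the divergent neighbour where that gene starts nearer. Capitals mark matches on either strand to CCGGAAG (an ETS family motif), TGCGCA (the core of the NRF1 motif) or AAGATGGC (a YY1 motif).
Mrpl33: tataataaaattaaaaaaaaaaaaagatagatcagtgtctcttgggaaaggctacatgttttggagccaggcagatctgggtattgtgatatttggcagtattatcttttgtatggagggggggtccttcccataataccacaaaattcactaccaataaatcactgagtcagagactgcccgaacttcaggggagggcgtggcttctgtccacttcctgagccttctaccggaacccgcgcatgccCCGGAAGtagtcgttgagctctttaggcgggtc
Mrpl3: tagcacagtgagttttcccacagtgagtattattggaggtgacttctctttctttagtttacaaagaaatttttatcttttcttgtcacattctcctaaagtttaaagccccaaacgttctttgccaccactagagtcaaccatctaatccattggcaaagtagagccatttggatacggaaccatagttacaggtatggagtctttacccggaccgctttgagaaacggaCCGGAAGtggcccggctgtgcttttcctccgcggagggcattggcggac
Mrpl40: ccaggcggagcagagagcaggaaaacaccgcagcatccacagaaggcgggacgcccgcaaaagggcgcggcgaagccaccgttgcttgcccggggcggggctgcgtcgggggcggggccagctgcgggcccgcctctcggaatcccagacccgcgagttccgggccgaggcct
Mrps7: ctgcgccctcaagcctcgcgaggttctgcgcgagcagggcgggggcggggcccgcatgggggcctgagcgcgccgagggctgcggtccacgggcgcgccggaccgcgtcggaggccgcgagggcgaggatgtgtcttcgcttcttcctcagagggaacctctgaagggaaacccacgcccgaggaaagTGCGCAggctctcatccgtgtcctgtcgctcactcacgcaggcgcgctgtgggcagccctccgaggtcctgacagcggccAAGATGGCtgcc
Mrps33: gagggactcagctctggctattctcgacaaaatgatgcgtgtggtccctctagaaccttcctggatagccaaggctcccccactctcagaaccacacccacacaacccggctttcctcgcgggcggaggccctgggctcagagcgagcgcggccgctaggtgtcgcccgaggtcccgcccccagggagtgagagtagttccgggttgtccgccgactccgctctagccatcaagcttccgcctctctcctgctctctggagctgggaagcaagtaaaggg
Mrps36: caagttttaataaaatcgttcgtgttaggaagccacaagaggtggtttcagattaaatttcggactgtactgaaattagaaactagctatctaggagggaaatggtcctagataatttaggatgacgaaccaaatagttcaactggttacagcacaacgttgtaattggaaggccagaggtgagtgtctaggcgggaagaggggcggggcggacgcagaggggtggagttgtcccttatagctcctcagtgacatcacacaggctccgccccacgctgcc
Mrps11: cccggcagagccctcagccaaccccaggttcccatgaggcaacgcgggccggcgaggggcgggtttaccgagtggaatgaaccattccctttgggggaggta
On GRCm38.p6, the Mrpl33 sequence, the highest of its subunit, is chr5:31613701-31613980 on the plus strand. That of Mrpl3, the lowest, is chr9:105053018-105053297 on the plus strand, and that of Mrpl40, nearest the median, is chr16:18876608-18876780 on the minus strand and reaches into the record of Hira. Among the small subunit genes, Mrps7, the highest, is shown at chr11:115603890-115604169 on the plus strand, reaching into Gga3. Mrps33, the lowest, is at chr6:39810907-39811186 and Mrps36, nearest the median among those in the table, at chr13:100744630-100744909, both on the minus strand. The stretch between Mrpl46 and Mrps11, at chr7:78783059-78783160, is given on the plus strand, on which Mrps11 lies. Counting the first base of the TSS as 0, the ETS match began at -3 in Mrpl33 and at -19 in Mrpl3, and in Mrps7 the NRF1 match began at -62 and the YY1 match at 18. Neither replicate had a covered base in the sequences of Mrpl33, Mrpl3, Mrpl40, Mrps7 or Mrps11. In Mrps33 14.6% of the bases were covered in replicate 1 and 0% in replicate 2, and in Mrps36 23.6% and 32.5%. So in the highest and the lowest member of each subunit, the sequence at the start itself was largely free of called H3K4me1. Other members near those ends differed. In the 300 bases from 250 before to 50 after the TSS, Mrpl58 had 50.7% and 54.7% covered and Mrpl16 58% and 38%. These 300 bases held no covered base in either replicate in 50 of 78 members, with 58.6% of all genes as background.

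Every member had H3K4me1 near its start. A peak of the replicated list lay within 2 kb of the TSS in 78 of 78 members, against 73.1% of all protein-coding genes. In 69 of the 78 there were such peaks on both flanks with the TSS itself uncovered, an arrangement found in 47.3% of all genes. Of all genes, 26.9% had no such peak on either flank. The arrangement was not particular to the members. It was found in 75 of 88 genes for subunits of oxidative phosphorylation and 59 of 77 for cytosolic ribosomal proteins. Other mitochondrial translation genes had it in 26 of 27, and assembly genes of the mitochondrial ribosome in 25 of 25. A further 7 had a peak on the downstream flank only, against 6.29% of all genes. These were Mrpl3, Mrpl32, Mrpl40 and Mrpl44 of the large subunit genes and Mrps18b, Mrps22 and Mrps30 of the small subunit genes. Mrps14, a small subunit protein with a bacterial homolog, was the 1 member with a peak on the upstream flank only (3.14% of all genes). Mrpl4 was the 1 member with a peak on its TSS (16.4% of all genes). Its start was taken from the gene record, since the promoter table did not list it.

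Within 1 kb upstream and 2 kb downstream of the start the shape was close to the same in both subunits. In bins of 100 bp, coverage next to the TSS lay between 0% and 5.47% on either side for both subunits and replicates. It reached a highest value downstream of 86.5% in replicate 1 and 87.98% in replicate 2 for Mrpl genes, and of 93.8% and 86.0% for Mrps genes, all between 1000 and 1200 bp from the TSS. Over all genes the highest downstream values were 46.8% and 42.2%, in the same range of distances. The upstream flank was lower, with highest values of 65.1% and 62.8% for Mrpl and 64.7% and 62.7% for Mrps genes, between 600 and 900 bp. Farther upstream the subunits parted, with mean coverage from 1 to 2 kb upstream of 43.6% and 42.1% for Mrpl and 28.7% and 29.3% for Mrps genes. In the class from 1 to 2 kb downstream, 77 of 78 members had covered bases in both replicates, against 58.2% of all genes. The exception, Mrps14, had 0% there in replicate 1 and 24.3% in replicate 2. That distance class was singled out after its values were seen.

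**Figure D1:**
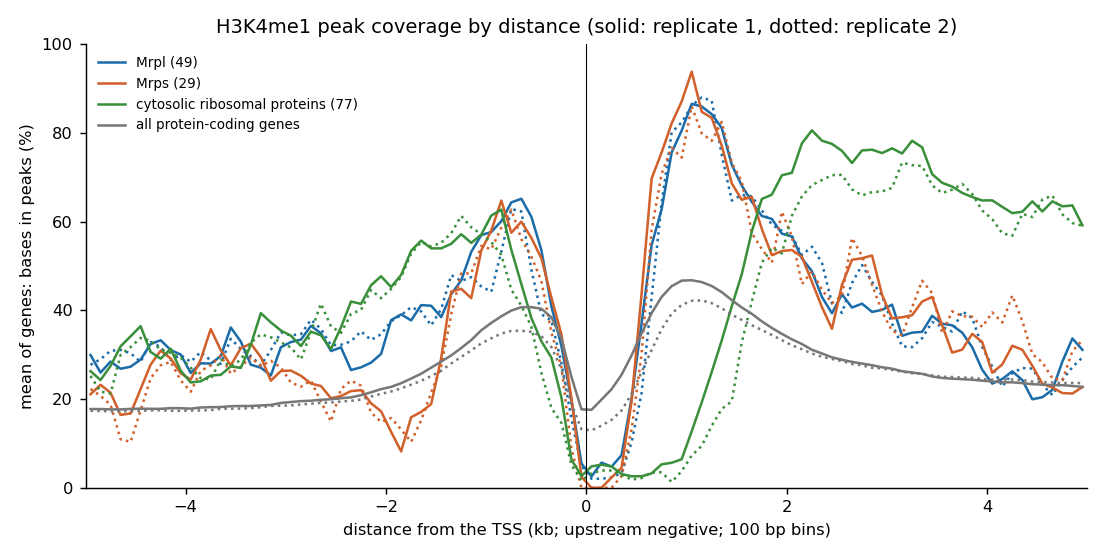
Mean percent of bases in H3K4me1 peaks per 100 bp bin from 5 kb upstream to 5 kb downstream of the TSS, for Mrpl, Mrps, cytosolic ribosomal protein and all protein-coding genes. Solid lines are replicate 1 and dotted lines replicate 2. Mrpl and Mrps genes dip together at the TSS and peak together at about 1 kb downstream. Upstream they part beyond 1 kb and meet again in places between 3200 and 3800 bp. The cytosolic ribosomal protein genes reach their highest coverage farther downstream.

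The stretch without peaks over the TSS was about 1 kb wide in the members. It was measured between the nearest covered bases on each side, where both lay within 5 kb, which held for 72 members in replicate 1 and 74 in replicate 2. Its median was 952.5 bp (replicate 1) and 1118.5 bp (replicate 2), beside 983 and 1160.5 bp over all genes. By subunit the medians were 995 and 1163 bp for Mrpl and 902 and 1116 bp for Mrps genes. Among members, Mrpl36 (374 and 709 bp) and Mrpl16 (485 and 580 bp) had some of the narrowest stretches. Mrps18b had 3807 and 4156 bp, Mrpl40 3167 and 3243 bp, and Mrpl32 2887 and 3038 bp, and all 3 are genes with a divergent neighbour. Mrpl44, with 814 bp in replicate 1 and 5362 bp in replicate 2, was the member whose replicates differed most in this measure. Replicate 2 gave the wider median in each of these lists, so widths are compared within a replicate only.

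Here the members stood apart from the genes of the other ribosome of the cell. For 77 cytosolic ribosomal protein genes the median stretch was 2023 and 2337.5 bp, and the lower quartiles, 1797.75 and 2063 bp, lay above the upper quartiles of the members, 1248.25 and 1475.75 bp. Most of the difference was on the downstream side. From 500 to 1000 bp downstream the members had a mean coverage of 65.6% and 59.6%, and the cytosolic ribosomal protein genes 4.64% and 2.83%. Upstream the lists differed less, with 30.3% and 24.5% against 18.3% and 13.0% within 500 bp and 60.8% and 55.2% against 52.4% and 46.0% from 500 to 1000 bp. Subunits of oxidative phosphorylation (OXPHOS), some of which have mitochondrially encoded partners made by this ribosome, had medians of 1087 and 1227 bp over 77 and 78 genes. These differed from the members' medians by less than the replicates did. The cytosolic ribosomal protein genes are shorter, with a median gene record of 3175 bp against 7690.5 bp, and the part of length in the width of the stretch was not tested.

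**Figure D2:**
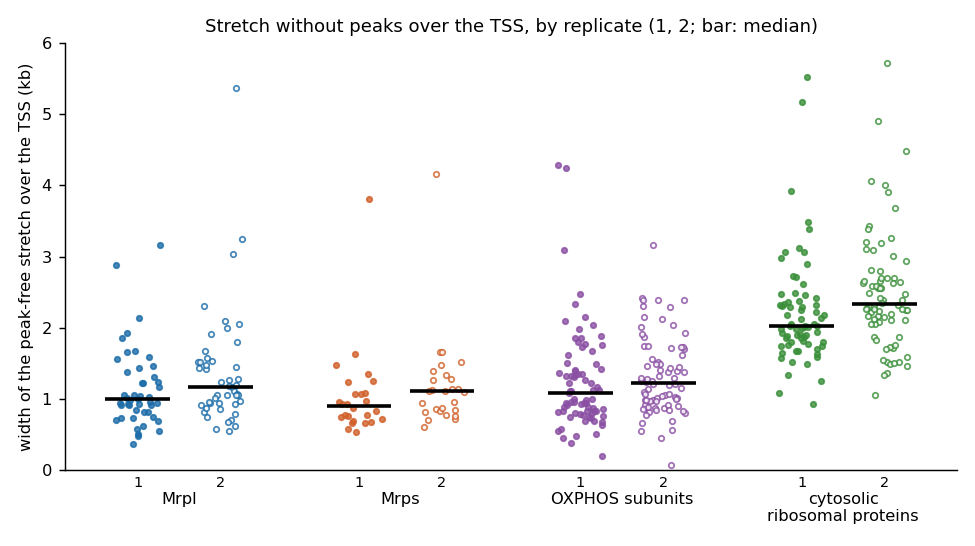
Width in kb of the stretch without H3K4me1 peaks over the TSS, 1 point per gene, for Mrpl, Mrps, OXPHOS subunit and cytosolic ribosomal protein genes, with replicate 1 filled and replicate 2 open and the median as a bar. The bars of Mrpl, Mrps and OXPHOS genes lie between 902 and 1227 bp, and those of the cytosolic ribosomal protein genes at 2023 and 2337.5 bp.

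Over the whole window of 20 kb on each side the members were spread widely. The lowest mean coverage was 2.55% (Mrpl3) and the highest 76.8% (Mrps7). The median was 29.7% in replicate 1 and 30.8% in replicate 2, against 13.97% and 13.7% over all genes, and the middle of the distribution ran from 16.5% to 44.96%. A median above that of all genes was not particular to the members. Cytosolic ribosomal protein genes had 35.7% and 34.2%, and OXPHOS subunit genes 26.7% and 29.9%. Of the 78, 60 lay above the median of all genes in both replicates, as 48.2% of all genes did. No member had 0% coverage. Since the spread among members far exceeded that between replicates (Spearman's rho of 0.984 between replicates across the 78 genes, which share 2 libraries), a member's place in the order was largely the same in both.

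Mrpl genes had a higher median than Mrps genes, with distributions that overlapped broadly. For the 49 Mrpl genes the median was 34.7% in replicate 1 and 34.1% in replicate 2 (SD of these 2 medians 0.43). The median of per-gene means was 35.08%. For the 29 Mrps genes the replicate medians were 21.1% and 24.6% (SD 2.43), and the median of per-gene means was 22.04%. The difference was 13.6 percentage points in replicate 1 and 9.56 in replicate 2, both smaller than the interquartile range within either subunit, the narrowest of which was 22.4 points. On per-gene means it was 13.04 points, and 5.835 in windows of 50 kb, 7.4 in windows of 5 kb, 5.826 with the 50000 strongest peaks and 23.59 with the mm9 lists. The lower quartiles were the same to 3 digits, 16.5% in both, and the upper quartiles were 53.4% for Mrpl and 38.9% for Mrps genes. Coverage above 50% in both replicates was found in 15 of 49 Mrpl and 2 of 29 Mrps genes, with 9.5% of all genes as background. It was also found in 20 of 77 cytosolic ribosomal protein and 18 of 88 OXPHOS subunit genes. That threshold was chosen after the values were seen. With genes as the only units within 1 condition, the difference between the subunits has no test.

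**Figure D3:**
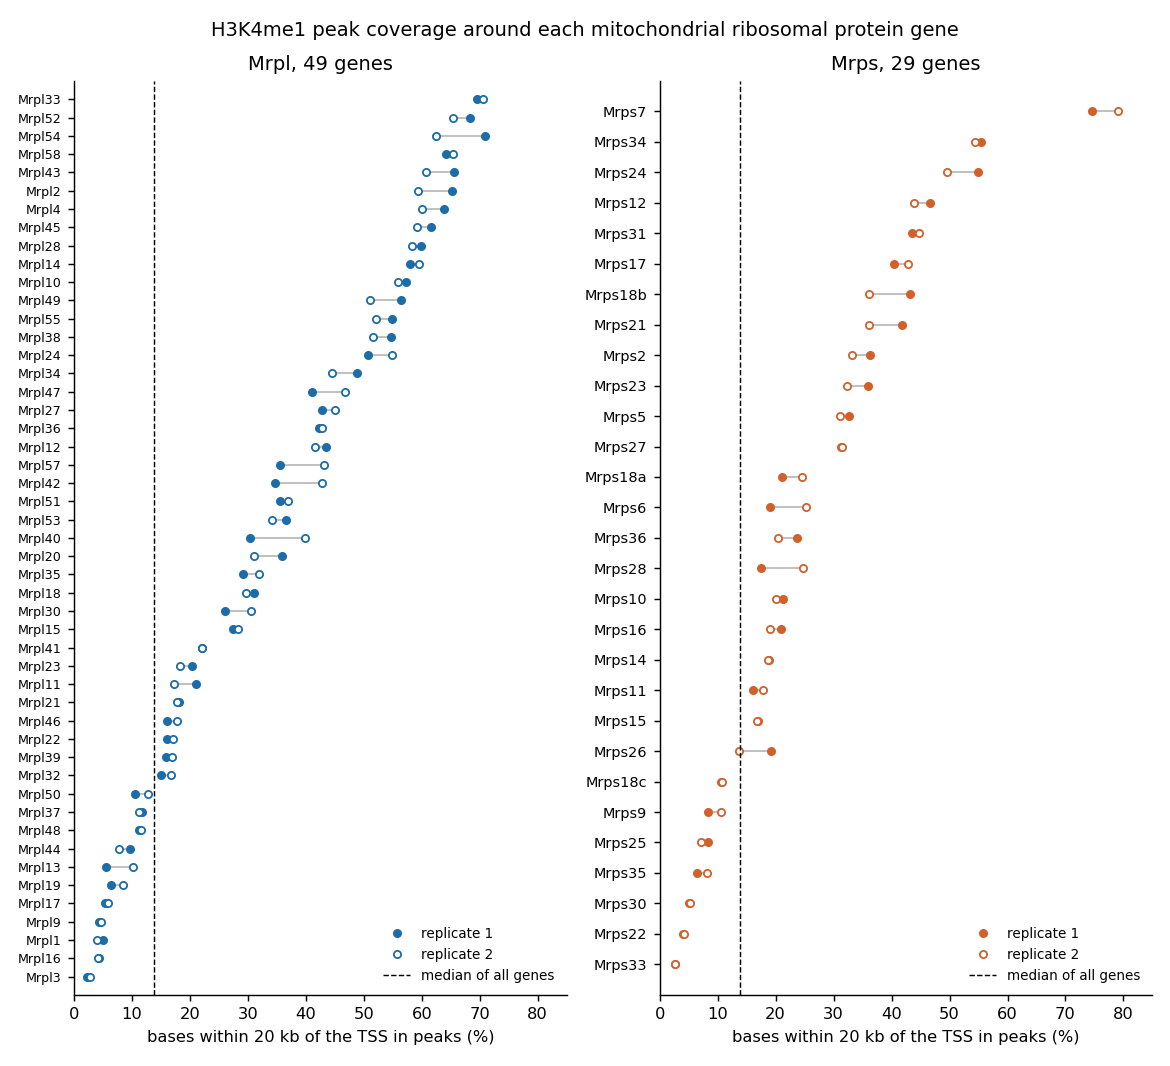
Percent of bases within 20 kb of the TSS in H3K4me1 peaks for each of the 49 Mrpl genes (left) and 29 Mrps genes (right), replicate 1 filled and replicate 2 open, with the median of all protein-coding genes dashed at 13.8%. Mrpl genes run from 2.55% to 70.1% and Mrps genes from 2.63% to 76.8%, and the Mrpl genes hold more of the places above 50%.

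Among the large subunit genes the highest coverage was at Mrpl33, a homolog of a bacterial large subunit protein, with 69.6% in replicate 1 and 70.6% in replicate 2 (70.1% ± 0.71). Next came Mrpl52, found only in mitochondria, with 68.3% and 65.5%. Mrpl54, likewise without a bacterial counterpart, had 70.9% and 62.4%. Mrpl58, which also acts as a peptidyl-tRNA hydrolase that releases stalled chains, had 64.1% and 65.4%, and Mrpl43 had 65.5% and 60.7%. Steps between neighbours in this order were at most 3.22 points, less than the SD of Mrpl54 over its replicates, 5.99 points. Peaks no more than 1 kb apart were joined into domains, and the widest next to the start was 18297 bp at Mrpl33, 8713 bp at Mrpl52, 18664 bp at Mrpl54, 9649 bp at Mrpl58 and 15085 bp at Mrpl43, where the median member had 3861.5 bp. The widest domain of any member was at Mrpl28, another protein with a bacterial homolog, with 18714 bp.

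At the other end was Mrpl3, homolog of a protein at the core of the bacterial large subunit, with 2.33% and 2.77%. It had 0% upstream in both replicates, and its coverage was highest from 500 to 1000 bp downstream, where 70.2% and 81.6% of bases lay in peaks. From 1 to 2 kb downstream it had 12.7% and 25.4%. Mrpl16 had 4.25% and 4.14%, and Mrpl9 4.32% and 4.73%. Mrpl1, the protein of the mobile L1 stalk, had 5.03% and 4.00%. Mrpl17 had 5.42% and 5.88%. All 5 descend from bacterial proteins of the large subunit, and all 5 had a replicated peak within 2 kb of the start, so their low values came from the bases farther out. From 5 to 20 kb upstream Mrpl1, Mrpl3, Mrpl9, Mrpl16 and Mrpl17 had 0% in both replicates.

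Of the small subunit genes Mrps7, whose bacterial homolog organises the head of the subunit, had the highest coverage of all members, with 74.5% in replicate 1 and 79.1% in replicate 2. Mrps34, found only in mitochondria, had 55.5% and 54.4%. Mrps24, despite its number the homolog of bacterial S3, had 54.9% and 49.6%. Mrps12, the homolog of the decoding centre protein S12, had 46.6% and 43.8%, and Mrps31 43.6% and 44.7%. Mrps7 therefore stood 21.9 points above Mrps34 on the mean of replicates, the widest step between neighbours in either subunit's top 5.

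The lowest small subunit gene was Mrps33, with 2.66% and 2.61%. Like Mrps22 (4.04% and 4.15%), Mrps35 (6.41% and 8.12%) and Mrps25 (8.36% and 7.13%), it encodes a protein found only in mitochondria. Mrps30, with 5.14% and 5.20%, is named for the small subunit but its protein sits in the large one. So does that of Mrps18a (21.1% and 24.6%), and the product of Mrps36 (23.7% and 20.4%) belongs to the 2-oxoglutarate dehydrogenase complex. With Mrps30 and Mrps18a counted as large subunit genes and Mrps36 left out, the medians were 33.47% and 21.62%, a difference of 11.85 points.

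Taken over all members, the difference between the subunits lay mostly upstream, beyond 1 kb, though not evenly. Over the 20 kb upstream the median was 32.5% and 31.7% for Mrpl and 13.4% and 11.7% for Mrps genes. Over the 20 kb downstream it was 29.6% and 34.0% for Mrpl and 29.9% and 31.9% for Mrps genes, a difference of -0.26 points in replicate 1 and 2.07 in replicate 2. On per-gene means of the replicates that downstream difference was -4.46 points, so it had no stable sign. By distance class, Mrpl genes were the higher from 5 to 10 kb downstream, with mean coverage of 33.5% and 34.0% against 26.3% and 27.9%. From 500 to 1000 bp downstream Mrps genes were, with 71.6% and 62.0% against 62.1% and 58.2%. From 1 to 2 kb upstream, where the profiles parted, the gap was about as wide as at 10 to 20 kb, and over the first 5 kb upstream the medians were 33.0% and 32.8% for Mrpl and 21.7% and 17.6% for Mrps genes. Between 5 and 10 kb upstream, mean coverage was 34.8% and 34.8% for Mrpl and 14.5% and 13.1% for Mrps genes, beside 16.9% and 16.6% over all genes. Between 10 and 20 kb upstream it was 35.2% and 35.3% against 20.9% and 19.9%. Mrpl genes thus lay well above all genes at that distance, which had 16.8% and 16.5%, and Mrps genes close to them. Within 1 kb on the upstream side the subunits were alike, with 61.6% and 54.3% against 59.3% and 56.6% from 500 to 1000 bp. The upstream difference was widest in members without a divergent neighbour within 1 kb. Their upstream medians were 32.5% and 31.6% for 31 Mrpl and 11.5% and 8.82% for 21 Mrps genes. With such a neighbour they were 30.1% and 33.6% for 18 Mrpl and 25.6% and 21.8% for 8 Mrps genes. In the latter, mean coverage from 2 to 5 kb upstream was higher in Mrps (43.6% and 43.1%) than in Mrpl genes (35.3% and 39.1%).

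**Figure D4:**
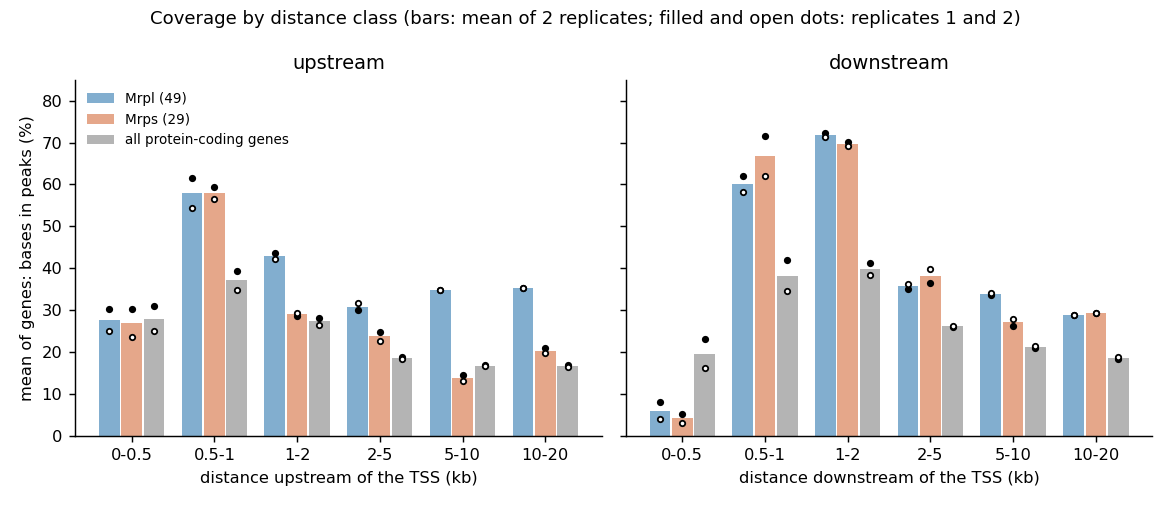
Mean percent of bases in H3K4me1 peaks by distance class upstream (left) and downstream (right) of the TSS for Mrpl, Mrps and all protein-coding genes. Bars are the mean of 2 replicates and dots the replicates. Upstream the Mrpl and Mrps bars part beyond 1 kb, most of all between 5 and 10 kb and least between 2 and 5 kb. Downstream most are of like height. There Mrpl is the higher between 5 and 10 kb (33.8% against 27.1%) and Mrps between 500 and 1000 bp (66.8% against 60.1%).

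Mrps genes accordingly had more coverage downstream than upstream. The median difference, downstream minus upstream, was 13.6 points in replicate 1 and 16.0 in replicate 2 for Mrps genes, and -1.06 and -1.39 for Mrpl genes. Downstream exceeded upstream in both replicates in 23 of 29 Mrps and 21 of 49 Mrpl genes, together 44 of 78 members. Upstream exceeded downstream in 6 Mrps and 23 Mrpl genes, together 29 members. Over all 21486 genes the counts were 9642 (44.9%) and 6289, and 3351 more had 0% coverage in both replicates. No member had 0% coverage, so the share of 44.9% does not set the members apart from genes that have coverage. The share of members with more coverage downstream, 56.4%, was also not above those of like lists. It was 62.5% for OXPHOS subunit genes (55 of 88) and 59.7% for cytosolic ribosomal protein genes (46 of 77). Taken over all 78 members the median difference was 6.03 and 5.21 points. Over all genes, those without coverage included, it was 0 in both replicates. On per-gene means the members' value was 5.489 points, and 0 with the 50000 strongest peaks, 9 with the mm9 lists and 11.13 in windows of 5 kb.

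The genes with the largest excess downstream were all of the small subunit. Mrps31 had 64.2% and 71.3% downstream against 23.0% and 18.1% upstream. Mrps5, homolog of bacterial S5, had 48.0% and 52.1% against 17.2% and 10.2%. Mrps10, homolog of S10, had 39.4% and 35.5% against 3.25% and 4.58%. In these 3 the replicates of the 2 sides did not overlap. The largest excess upstream was at Mrpl47, the homolog of bacterial L29, with 71.5% and 79.4% upstream against 10.8% and 14.1% downstream. Mrps34 had 85.02% and 80.3% against 25.9% and 28.4%, and Mrpl35 51.3% and 56.2% against 7.03% and 7.58%. Mrpl47 and Mrps34 share their upstream side with a divergent gene, Ndufb5, which encodes a complex I subunit, and Eme2. Mrpl35 has no such partner within 1 kb.

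**Figure D5:**
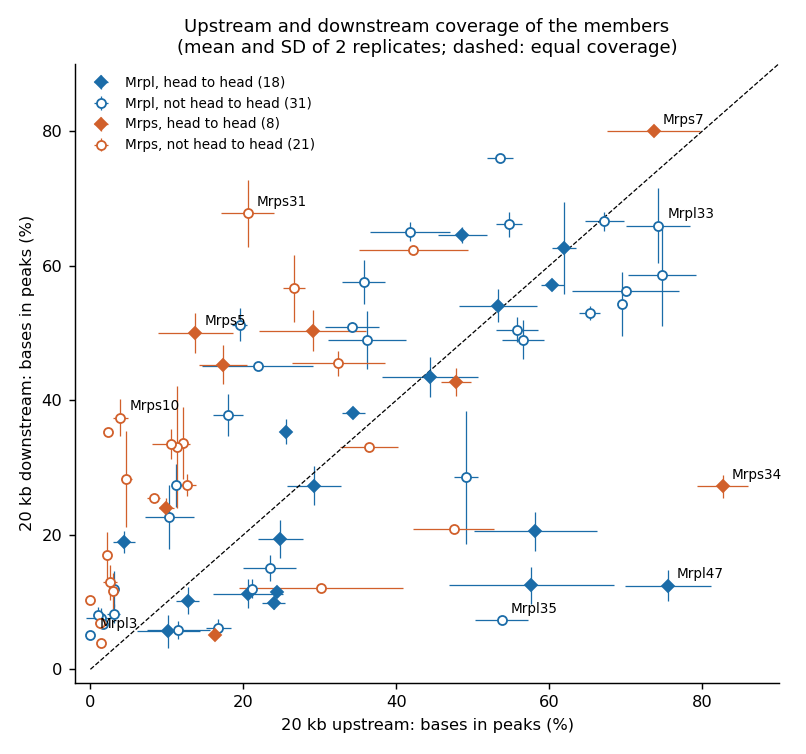
Percent of bases in H3K4me1 peaks in the 20 kb upstream (x axis) and the 20 kb downstream (y axis) of each member's TSS, as the mean and SD of 2 replicates, with filled diamonds for members that have a divergent neighbour within 1 kb. Most Mrps points lie above the dashed line of equal coverage, while Mrpl points lie on both sides of it.

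Gene density differed between the subunits as well. An upstream neighbour, another protein-coding TSS within the 20 kb, was lacking in 15 of the 49 Mrpl genes (30.6%) and 15 of the 29 Mrps genes (51.7%), beside 65.3% of all genes. Among members with such a neighbour, median upstream coverage was 37.2% and 36.7% for Mrpl (34 genes) and 25.3% and 21.8% for Mrps (14 genes). Among members without one it was 14.5% and 11.4% for Mrpl and 5.22% and 4.58% for Mrps genes. So the order of the subunits was the same with and without neighbours, at lower levels without. Over the window as a whole, the 19 members with no neighbouring TSS had a median coverage of 8.39% and 10.6%, close to the 8.80% and 8.36% of all genes without neighbours. The 48 members with 1 or 2 neighbours had 29.7% and 30.8%, against 20.1% and 19.4% of such genes at large. The 9 with 3 or 4 had 50.8% and 52.1%, against 41.6% and 38.4%. The remaining 2, Mrpl49 and Mrps34, have 5 each and had mean coverages of 53.7% and 54.9%. Some members without a neighbouring TSS were nonetheless high: Mrpl33 had 70.1%, Mrpl45 60.4% and Mrps24 52.2%.

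Divergent promoters were common among the members. In 26 of 78 another protein-coding gene started within 1 kb upstream on the opposite strand, against 7.65% of all genes, and the 26 were 18 Mrpl and 8 Mrps genes. OXPHOS subunits had 24 of 88 and cytosolic ribosomal proteins 13 of 77. A few partners are given as examples and were not counted by function. Mrps12 starts 147 bp from Sars2, the mitochondrial seryl-tRNA synthetase, Mrpl47 308 bp from Ndufb5 and Mrps27 108 bp from Ptcd2, a mitochondrial pentatricopeptide repeat protein. Mrpl49 starts 192 bp from Fau, whose product yields a cytosolic ribosomal protein, and Mrpl18 238 bp from Tcp1, a chaperonin subunit. These partners were singled out after the list was seen.

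Members with a divergent partner had a wider stretch without peaks. For the 26 its median was 1239.5 and 1448 bp, and for the 46 and 48 others that had one it was 917.5 and 954 bp. Of the 1643 divergent genes of the genome, the 1473 and 1477 that had one gave medians of 1271 and 1446 bp, close to those of the members. The 300 bases of the promoter, from 250 before to 50 after the TSS, held no covered base in either replicate in 24 of the 26 and in 26 of the 52 others. Of the 1643 divergent genes of the genome, 1369 had none there either. Over all members these bases were without coverage in 50 of 78, with 58.6% of all genes as background. Coverage over the whole window was 31.9% and 33.8% (medians) with a partner and 22.5% and 24.96% without. The subunits differed in this. Mrps genes had 37.9% and 33.8% with a partner (8 genes) and 19.3% and 20.0% without (21 genes). Mrpl genes had 30.7% and 33.7% with a partner (18 genes) and 35.9% and 34.1% without (31 genes). Among members with a partner, the Mrpl median was thus not above the Mrps median.

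Mrpl46 and Mrps11 were the only 2 members whose windows overlapped. Their starts lie 42 bp apart on chromosome 7, at 78783089 and 78783131, with the sequence between them among those shown, and they encode a large and a small subunit protein. Their windows hold nearly the same bases with the sides exchanged. Mrps11 had 22.8% and 25.04% downstream and 9.22% and 10.6% upstream, over all 16.0% and 17.8%. The peak-free stretch between their flanks measured 956 bp in replicate 1 and 1277 bp in replicate 2.

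Replicates differed most at Mrpl40, Mrpl54 and Mrpl42. Mrpl40, a large subunit protein found only in mitochondria, had 30.3% in replicate 1 and 39.9% in replicate 2 (35.08% ± 6.77). Mrpl54 had the higher value in replicate 1, and Mrpl42 in replicate 2, with 34.7% and 42.9%. Mrpl40 is also the member that set the Mrpl median of per-gene means. For most members the replicates lay closer, as the plot of every member shows.

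The origin of the proteins did not order coverage alike in both subunits. Members were grouped by the number in their symbol, and the homology of each protein was not tested. Of the 78, 48 were counted as having a bacterial homolog and 30 as being without one. The 30 include Mrps36, whose product is not part of the ribosome. Median coverage was 28.3% and 30.1% for the 48 against 30.8% and 31.9% for the 30. Among Mrpl genes the 19 without a bacterial homolog had the higher median, 35.5% and 39.9% against 30.2% and 30.8%. Among Mrps genes the 11 without one had the lower, 19.3% and 13.7% against 21.2% and 24.96%. Above the median of all genes in both replicates were 16 of 18 Mrps genes with a bacterial homolog and 6 of 11 without, beside the 48.2% of all genes.

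Some short motifs were found more often in the members' promoters than in all promoters, and others as often. Within 300 bases, CCGGAAG on either strand was found in 24 of 69 member promoters (34.8%) and 11.9% of all 17492 in the table. TGCGCA was found in 21 (30.4%) against 10.1%, and AAGATGGC in 12 (17.4%) against 3.21%. At least 1 of the 3 was present in 43 of 69, 62.3% against 22.3%, with 26 of 43 Mrpl and 17 of 26 Mrps promoters. Matches to different motifs of the 3 shared bases in 0 of the 69 promoters. Of 57 cytosolic ribosomal protein promoters 40.4% held the ETS motif, 17.5% the NRF1 core and 8.77% the YY1 motif. In the same order, the shares were 22.5%, 25.4% and 12.7% of 71 OXPHOS subunit promoters. They were 30.4%, 17.4% and 13.0% of 23 promoters of other mitochondrial translation genes. For 21 promoters of mitochondrial ribosome assembly genes they were 33.3%, 4.76% and 23.8%. The NF-Y motif (CCAAT) was in 39.1% of member promoters and 39.2% of all, the GC box (GGGCGG) in 49.3% and 46.3%, and the TATA box motif (TATAAA) in 4 of the 69, 5.797% against 13.3%. The promoters had a median ratio of observed to expected CpG of 0.82 against 0.58, and base composition bears on how often such letters occur. Coverage of the window was not ordered alike by these matches: with the ETS match the medians were 35.5% and 33.2%, and without it 23.7% and 25.2%, while with the NRF1 match they were 21.1% and 25.2%, and without it 30.7% and 31.1%.

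Most members are short genes, with 68 of 78 records shorter than the 20 kb window. Downstream coverage was therefore split at the gene's end. Medians were 37.0% and 36.2% inside the gene (78 genes) and 34.0% and 29.8% in the stretch beyond it (68 genes). So the mark was not limited to the member's own gene. The stretch beyond can hold other genes, which were not left out. Of all covered bases in the members' windows 14.8% lay within 2 kb of the member's own TSS, 14.1% within 2 kb of another protein-coding TSS and 71.1% elsewhere. Over all genes the last share was 73.3%.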

How the data were processed

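H3K4me1 was assayed by ChIP-seq in 2 biological replicates, as numbered in the labels. Which programs aligned the reads and called the peaks is not given in the sources used here. The authors deposited narrow peak lists on mm10 (per replicate, pooled, and of replicated peaks) and broad ones on mm9 (per replicate and for the series). Columns deposited by the authors hold a signal value per peak in every list, with −log10 p and −log10 q on mm10 but a p-value and q-value on mm9. They served only to filter or rank peaks of 1 list. The read-me files name 1 input more for the replicate 2 and pooled mm10 lists than for replicate 1, with no role stated. No list holds read counts, so depth is unknown, and intervals or floors that need it were not computed.

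Genes came from a RefSeq table of GRCm38.p6 and strands from the promoter table or GENCODE vM1, and 401 of 21887 protein-coding genes without a strand were left out. The TSS was the most upstream start in the promoter table, available for 69 of 78 members, and otherwise the 5′ end of the gene record. The promoter-table start lay over 500 bp from that end in 11 members, by 10282 bp in Mrps23. As a check of the build, 73.1% of GRCm38 starts but 39.7% of mm9 starts had an mm10 replicated peak within 2 kb. Coverage was computed with Python 3.11.15, numpy 2.4.6 and pandas 2.3.3, and the counting was tested on simulated data, where 0 of 5000 windows differed from the known answer. List values are medians over genes. Means ± SD are over the 2 replicates and measure only the spread between these libraries. With 1 group and no control list used here, no test was made.

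Members and lists were chosen with earlier results of these data known. Named genes are the 5 highest and 5 lowest of each subunit, the 3 largest differences between sides in each direction, the 3 largest differences between replicates and members with overlapping windows. Any other gene was named after its values were seen. Alternatives were other windows, stricter peaks, other lists, the mm9 lists, each replicate left out, members alone in their window, subunits by structure and, added after the data were seen, gene record starts.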

Additional observations from a re-analysis of the deposited data

How the results depend on the processing

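The count of 78 members with a replicated peak within 2 kb of the start was 76 within 1 kb and 78 under each of the other 8 settings tried. The Mrpl median exceeded the Mrps median under each of the 12 alternatives. In windows of 5 kb the medians were 37.72% for Mrpl and 30.32% for Mrps genes (difference 7.4 points). In windows of 50 kb they were 27.87% for Mrpl (difference 5.835). With the 50000 strongest peaks of each list they were 14.87% and 9.04% (difference 5.826), with the pooled list 40.54% and 26.7%, and with the mm9 lists 55.84% and 32.25% (difference 23.59). The replicated list gave 38.46% for Mrpl and subunits by structure 33.47%. The median downstream minus upstream difference of the members, 5.489 points, was 11.13 in windows of 5 kb, 3.778 in windows of 50 kb, 6.423 with the replicated list, 6.82 with the pooled list, 9 with the mm9 lists and 0 with the 50000 strongest peaks. Leaving out a replicate gave 34.13% to 34.74% for Mrpl, 21.15% to 24.58% for Mrps, 9.555 to 13.59 points for their difference and 5.21 to 6.032 for the difference between sides. The causes of these shifts were not tested. Upstream, Mrpl exceeded Mrps genes by 9.88 points (windows of 5 kb) to 29 points (mm9 lists) over the 11 settings run by side, while downstream the difference ran from -4.46 to 4.372 points and changed sign. With gene record starts the upstream difference was 16.58 points. Subunits by structure and members alone in their window were not run by side. Depth is unknown, so a stretch without a peak cannot be told apart from one below the caller's threshold. No paired analysis was possible because there is 1 group.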

Other observations

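Genes that serve the mitochondrial ribosome without being part of it had median coverages below that of the 78 members (29.7% and 30.8%), though the assembly genes were about level with the Mrps genes (21.1% and 24.6%). The 27 other genes of mitochondrial translation, among them aminoacyl-tRNA synthetases and translation factors, had medians of 15.4% in replicate 1 and 15.5% in replicate 2. The 25 genes for assembly of the mitochondrial ribosome and its RNA had 21.1% and 21.01%. Near the start both lists were like the members, with a replicated peak within 2 kb in 27 of 27 and 25 of 25. Their stretches without peaks over the TSS had medians of 821 and 1055.5 bp for the translation genes and 1058 and 1234 bp for the assembly genes. These lists were chosen with earlier results of the data known, and the differences have no test.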
